A study of Homo sapiens with 6 samples.

Results

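The P-type ATPase genes, which encode ion pumps of cell membranes, their accessory subunits and the phospholipid flippases, were followed in human embryonic stem cells held in a naive or a primed state. The members were the protein-coding rows of a gene count table whose symbol starts with ATP and a code of a P-type family. This gave 45 rows with 41 distinct symbols of 63677 genes in the table, and 37 of these symbols are described below and counted as members. In 3 of them (ATP2B3, ATP7A and ATP9B) a second row stood at 0 in all 6 libraries, and the other row was used.

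The RNA sequencing study compared 2 pluripotent states in the human embryonic stem cell lines Royan H6, written RH6 here, and Royan H5, written RH5, and its title places the conversion to the naive state under NR5A2, RARγ and the TGFβ pathway. Naive RH6 cells (2 libraries, passage 10) and naive RH5 cells (2 libraries, passage 17) were called 2a2iL-induced in the labels, were split with trypsin and were kept in 2iL medium. Primed RH6 cells (1 library, passage 20) and primed RH5 cells (1 library, passage 16) were kept in a medium with bFGF. Cells of both states grew on inactivated mouse embryonic fibroblast feeders, so feeder RNA can be present in every library, and no gene was altered by a label. Passage number therefore differed with state and line and cannot be told apart from them. Each group came from a single line, and nothing in the labels said whether replicate libraries came from separate cultures, so the p-values below reflect only how far these libraries lay apart, a spread that may be technical.

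P-type ATPases are membrane proteins that take a phosphate from ATP onto a conserved aspartate during each transport cycle. The Na,K-ATPases keep sodium low and potassium high in the cell, the Ca2+-ATPases clear calcium into stores or out of the cell, the copper ATPases load copper enzymes and export copper, and the P4 group moves phospholipids from the outer to the inner leaflet of a membrane. The alpha or catalytic chain carries the transport cycle, while beta subunits of the Na,K- and H,K-ATPases take the catalytic chain to the membrane.

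Library totals ran from 13496061 to 14663982 counts in the naive libraries, and were 14534073 in primed RH6 and 13457979 in primed RH5. The members together took 0.181% to 0.216% of counts in the naive libraries, against 0.179% in primed RH6 and 0.173% in primed RH5. Values are given as CPM, a gene's counts relative to a library total scaled with TMM factors, and differences as log2 fold changes of naive over primed cells with their standard error (SE). A gene was called when its adjusted p was under 0.05 in edgeR's quasi-likelihood test. Markers of other cells also differed between the states. Of 12 fibroblast markers tested (COL1A1 and COL1A2 among the genes listed), 7 were higher and 1 was lower in naive cells, and the summed level of the list was 520 to 984 CPM in naive libraries and 344 to 352 CPM in primed libraries. Summed mesoderm and primitive streak markers stood at 222 to 336 CPM in naive libraries, against 9.10 to 30.9 CPM in primed libraries. Summed trophectoderm markers stood at 525 to 636 CPM in naive libraries, against 194 to 221 CPM in primed libraries. Of 14 neural markers tested, 7 were lower and 0 higher in naive cells over both lines, although the summed levels overlapped (610 to 1161 CPM in naive libraries and 570 to 762 CPM in primed libraries). The median log2 fold change of these markers was -3.70 in RH6 and -0.65 in RH5. Within RH6 1 of them was called higher and 12 lower, and within RH5 4 were called higher and 6 lower. Summed muscle markers stood at 353 to 766 CPM in naive libraries and 165 to 336 CPM in primed libraries, with MYOG at 0 in every library. Of 5 muscle markers tested, 1 was called higher and 1 lower in naive cells over both lines, with a median log2 fold change of -0.29. Of 10 pluripotency genes tested, 5 were lower and 0 higher in naive cells over both lines. Their sums were 6219 and 5649 CPM in naive RH6 and 4623 and 4467 CPM in naive RH5 libraries, against 6566 to 6950 CPM in primed libraries. The median log2 fold change of these genes was -0.21 in RH6 and -1.03 in RH5, so the counts over both lines do not describe each line. In bulk RNA, a change in the number of cells of a type cannot be told apart from a change in RNA per cell, and the part of these other cells in the results below was not tested.

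Over both lines, 5 of the 30 members tested rose in naive cells (ATP12A, ATP1A4, ATP2B1, ATP7B and ATP10D) and 8 fell (ATP1B2, ATP2A1, ATP2A3, ATP2B2, ATP2C2, ATP8A1, ATP8B3 and ATP10A). The share called was 43.3%, beside 25.7% of the 19434 genes tested (12.1% higher and 13.6% lower), and the share called with an absolute log2 fold change of at least 1 was 33.3%, beside 15.4% of all genes. The median log2 fold change of the members was -0.13, beside -0.01 for all genes tested. Naive and primed libraries did not overlap in 21 of the 30 genes, 9 of them with the naive libraries above and 12 with them below, while 44.3% of all genes tested did not overlap (21.5% above and 22.8% below). A filter on low counts kept these 30 genes. ATP2B2, ATP2B3, ATP2C2 and ATP10A passed it through their primed libraries and ATP1A4 through its naive libraries, so that a difference in these genes was favoured by the filter. With 4 libraries against 2, no exact one-sided permutation p can go below 0.067, and the p-values rest on the variance shared across all genes. When the 2 naive libraries of a line were added into 1 sample, 4 members stayed called (ATP12A higher, and ATP2A3, ATP8A1 and ATP10A lower), beside 5.52% of all genes. Without naive RH6 replicate 1, 4 members were called higher and 3 lower, and 3 were called in each direction without naive RH6 replicate 2. Without naive RH5 replicate 1, 3 were called higher and 6 lower. The share of all genes called without these libraries was 17.4%, 15.7% and 15.6% in turn, against 25.7% with every library.

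**Figure D1:**
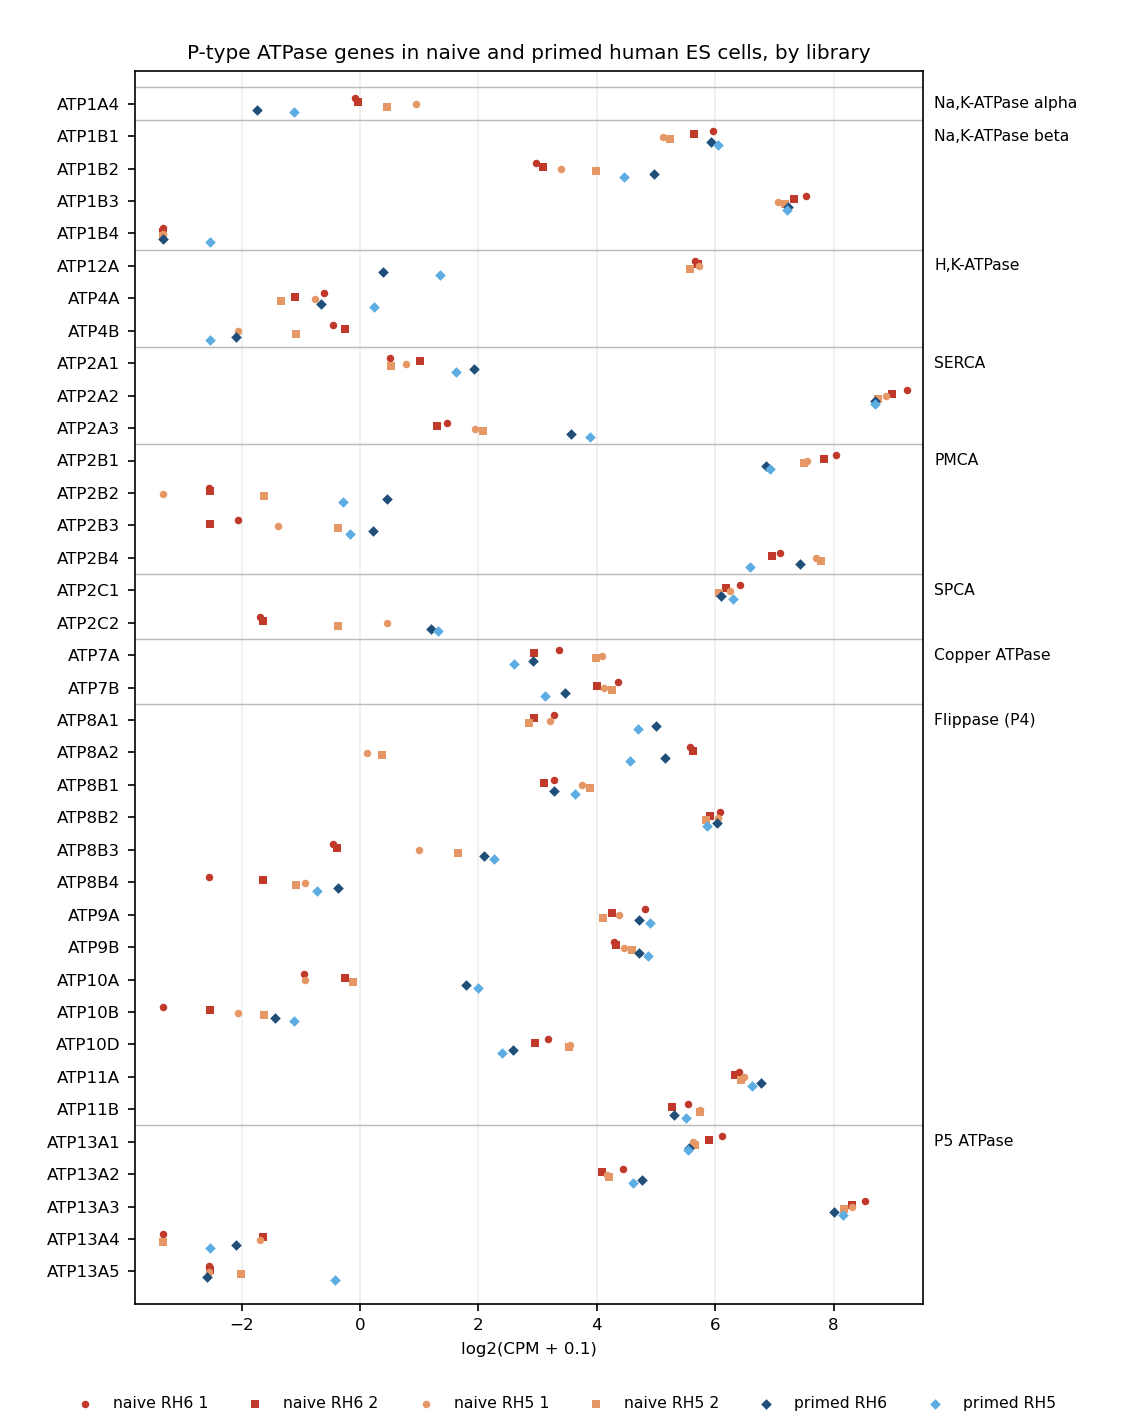
Level of each of the 37 P-type ATPase genes in each of the 6 libraries as log2(CPM + 0.1) on the horizontal axis, with genes grouped by subfamily down the page, naive libraries in red and orange and primed libraries in blue. ATP12A has the widest gap with the naive libraries to the right, and ATP8A2 is low in the naive RH5 libraries alone.

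ATP12A, the catalytic chain of the non-gastric H,K-ATPase, which exchanges protons for potassium and is best known from colon, skin and airway epithelium, had the largest rise of all members. Its level was 50.3 and 51.9 CPM in naive RH6 and 52.6 and 47.5 CPM in naive RH5 libraries, against 1.20 CPM in primed RH6 and 2.46 CPM in primed RH5. All 4 naive libraries lay close together and far above both primed libraries. The mean was 50.6 ± 2.24 CPM in naive cells (SD, n = 4) and 1.83 CPM in primed cells (2 libraries), and summed counts gave a ratio of 28.0 with a 95% interval of 21.3 to 37.6 that covers counting error only. The log2 fold change was 4.80 ± 0.26 (SE, adjusted p = 9.87e-05). Within RH6 it reached 5.40 ± 0.22 (adjusted p = 1.43e-07) and within RH5 4.34 ± 0.20 (adjusted p = 3.17e-07), and the difference between the lines was not called (1.05 ± 0.36, adjusted p = 0.0907). Per kilobase of merged exons, ATP12A was 7th of the 37 members in naive cells (11.4 ± 0.51 CPM per kb) and 26th in primed cells (0.41 CPM per kb). The gastric H,K-ATPase was near absent, with ATP4A, its catalytic chain, at 24 counts over the naive libraries and 23 over the primed libraries. Its beta subunit ATP4B had 26 counts over the naive libraries and 3 over the primed libraries. Both fell under the count filter and were not tested. The summed level of gastric and colonic epithelial markers was 10.6 to 19.3 CPM in naive libraries and 6.22 to 8.16 CPM in primed libraries, with TFF2 at 0 in every library. Of the 9 markers 2 were tested, and 1 of them was called higher in naive cells, CDX1 (adjusted p = 9.66e-05), named after its value was seen. The summed level includes CDX1, so its rise does not stand for the other markers of the list. CDX1 had 558 counts over the naive libraries and 2 over the primed libraries, a ratio of 145 with a counting interval of 39.9 to 1200. The part of gastric and colonic epithelial cells in the rise of ATP12A was not tested.

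ATP12A lies on chromosome 13, as does ATP8A2, the flippase whose naive level split the lines most. Their start regions, 250 bases before to 50 bases after the annotated start, are shown because these genes had the widest differences among the members. The sequences are those of RefSeq on GRCh38.p14, all on the plus strand, with CG dinucleotides in capitals. The ATP12A window is chr13:24680158-24680457, and the ATP8A2 windows are chr13:25371724-25372023 (window 1) and chr13:25468524-25468823 (window 2).
ATP12A: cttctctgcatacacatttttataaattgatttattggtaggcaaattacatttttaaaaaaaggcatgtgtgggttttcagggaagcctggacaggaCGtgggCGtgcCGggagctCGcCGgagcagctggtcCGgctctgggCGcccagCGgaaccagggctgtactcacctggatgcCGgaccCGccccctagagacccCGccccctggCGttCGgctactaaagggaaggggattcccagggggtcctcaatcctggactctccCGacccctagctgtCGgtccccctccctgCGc
ATP8A2 window 1: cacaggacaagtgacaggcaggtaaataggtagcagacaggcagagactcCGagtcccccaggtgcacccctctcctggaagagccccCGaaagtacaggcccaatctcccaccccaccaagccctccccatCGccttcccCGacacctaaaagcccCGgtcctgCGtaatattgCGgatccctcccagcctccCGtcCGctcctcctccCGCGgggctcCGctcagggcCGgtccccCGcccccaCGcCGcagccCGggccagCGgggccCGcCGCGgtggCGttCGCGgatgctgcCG
ATP8A2 window 2: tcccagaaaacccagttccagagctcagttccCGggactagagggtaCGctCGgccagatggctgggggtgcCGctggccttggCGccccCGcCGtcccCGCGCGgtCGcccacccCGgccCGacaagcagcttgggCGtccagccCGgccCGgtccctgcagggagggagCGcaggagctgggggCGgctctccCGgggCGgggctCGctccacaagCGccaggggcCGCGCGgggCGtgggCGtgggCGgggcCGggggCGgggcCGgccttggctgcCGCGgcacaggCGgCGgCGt
The ATP12A window held 16 CG dinucleotides, near the median of 14 over the 35116 windows of the table, while the ATP8A2 windows held 25 and 36. The median over 46 windows of the 33 members that matched was 24.5. The ATP12A window held the letters TATAAA, found in 11.5% of all windows, the letters CCAAT, found in 34.6%, and the letters GGGCGG, found in 45.0%, each searched on both strands. The TATAAA letters lay near the beginning of the printed window, far before the annotated start. Window 1 of ATP8A2 held CCAAT and also GGGCGG, and window 2 held only GGGCGG of these. The letters TCAAGGTCA and the AGGTCA within them (0.353% and 13.8% of all windows), CTTTGAT (2.62%), GTCTAGAC (0.202%) and ATTTGCAT (1.77%) were in neither gene's windows.

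ATP1A4, a catalytic chain of the Na,K-ATPase known from sperm, was scarce, with 0.839 and 0.881 CPM in naive RH6 and 1.83 and 1.27 CPM in naive RH5 libraries, against 0.201 CPM in primed RH6 and 0.361 CPM in primed RH5. It rose (log2 2.07 ± 0.45, adjusted p = 0.0167) on 67 counts over the naive libraries and 8 over the primed ones, a ratio of 4.34 with a counting interval of 2.08 to 10.5. The ATP1A4 call was lost without naive RH6 replicate 2 (adjusted p = 0.0509), without replicate 1 of naive RH5 (adjusted p = 0.0593) or without primed RH5 (adjusted p = 0.063).

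Among the beta subunits of the Na,K-ATPase, ATP1B2 fell, and ATP1B1 and ATP1B3 were not called over both lines. ATP1B2, the glial beta subunit that also acts in cell adhesion, had 7.77 and 8.37 CPM in naive RH6 and 10.4 and 15.8 CPM in naive RH5 libraries, against 31.0 CPM in primed RH6 and 21.8 CPM in primed RH5. It lay below the primed libraries in all 4 naive libraries and fell by 1.37 ± 0.29 on the log2 scale (adjusted p = 0.0149). The fall was 1.94 ± 0.22 in RH6 (adjusted p = 8.34e-05), with 0.74 ± 0.22 in RH5 (adjusted p = 0.0263), with a called difference of -1.21 ± 0.32 between the lines (adjusted p = 0.0345). The call over both lines was lost without naive RH6 replicate 1 (adjusted p = 0.0582) or replicate 2 (adjusted p = 0.0709), and the call in RH5 did not hold without naive RH5 replicate 1 (adjusted p = 0.109). ATP1B1, the common beta subunit that also pairs with ATP12A, had 62.5 and 49.7 CPM in naive RH6 and 34.8 and 37.7 CPM in naive RH5 libraries, against 60.9 CPM in primed RH6 and 66.4 CPM in primed RH5. The 2 naive RH5 libraries were the low ones. ATP1B1 fell in RH5 (log2 -0.87 ± 0.15, adjusted p = 0.00146), was not called in RH6 (log2 -0.12 ± 0.15, adjusted p = 0.582), and differed between the lines by 0.75 ± 0.22 (adjusted p = 0.0489). ATP1B3, the beta subunit with the highest level per kilobase of all members in both states (60.3 ± 8.63 CPM per kb in naive and 57.8 CPM per kb in primed cells), was not called (log2 0.05 ± 0.12, adjusted p = 0.796), and its direction turned with upper-quartile scaling (log2 -0.03). ATP1B4 had 0 counts in the naive libraries and 1 in primed RH5.

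**Figure D2:**
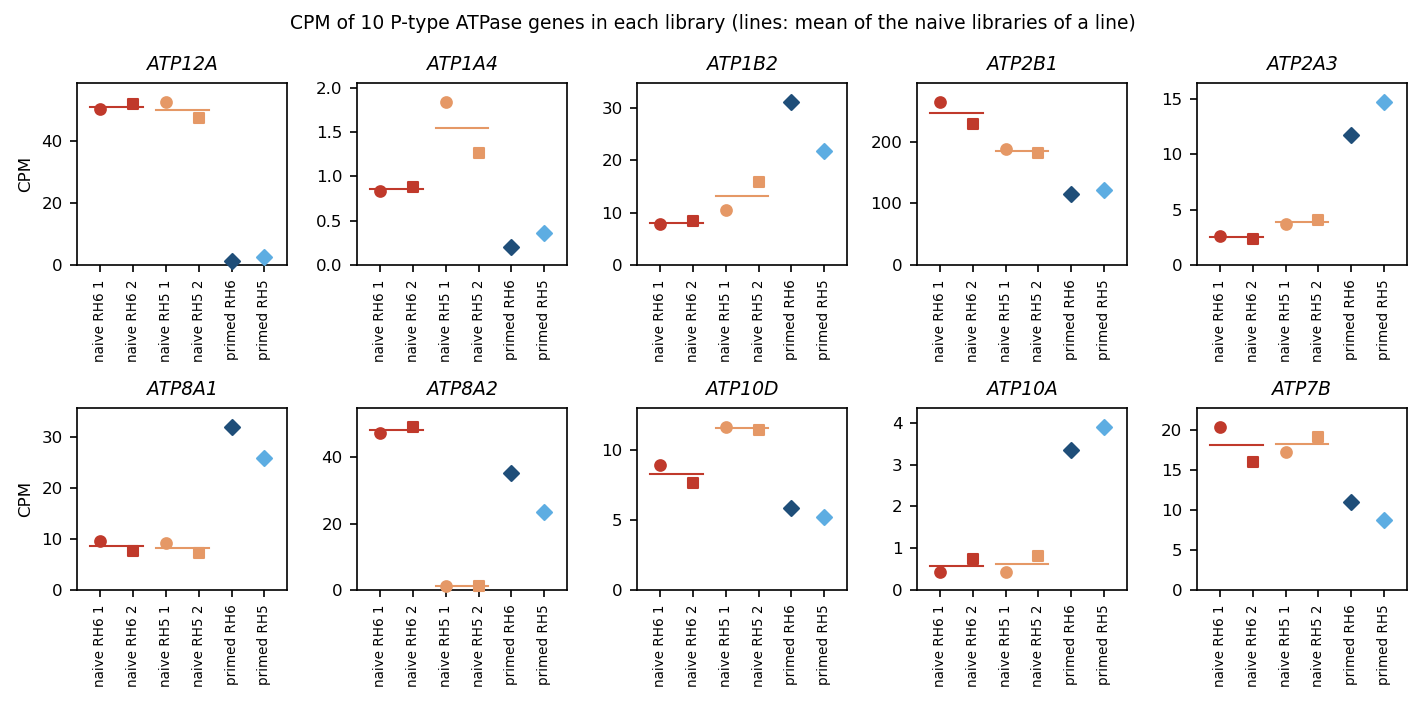
CPM of 10 P-type ATPase genes in each library, naive libraries at the left and primed at the right of each panel, with a line at the mean of the naive libraries of each cell line and a separate vertical axis from 0 for each gene. ATP12A stands near 50.6 CPM in all naive libraries and near 1.83 CPM in primed ones, whereas ATP8A2 is at 0.988 and 1.19 CPM in the naive RH5 libraries alone.

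Calcium pumps of the endoplasmic reticulum (SERCA) were dominated in both states by ATP2A2, the general form. Both minor forms, ATP2A1 of fast skeletal muscle and ATP2A3 of blood and epithelial cells, fell in naive cells. ATP2A2 had 606 and 504 CPM in naive RH6 and 474 and 432 CPM in naive RH5 libraries, against 414 CPM in primed RH6 and 413 CPM in primed RH5. It was not called over both lines (log2 0.27 ± 0.13, adjusted p = 0.165), and its call in RH6 (log2 0.42 ± 0.14, adjusted p = 0.0383) was lost without naive RH6 replicate 1 (adjusted p = 0.113). ATP2A3 had 2.66 and 2.35 CPM in naive RH6 and 3.74 and 4.10 CPM in naive RH5 libraries, against 11.7 CPM in primed RH6 and 14.7 CPM in primed RH5. Every naive library was well below both primed ones. ATP2A3 fell by 2.06 ± 0.18 on the log2 scale (adjusted p = 0.00058), by 2.22 ± 0.23 in RH6 (adjusted p = 4.99e-05), and in RH5 by 1.90 ± 0.22 (adjusted p = 0.000106). ATP2A1 had 1.33 and 1.91 CPM in naive RH6 and 1.62 and 1.34 CPM in naive RH5 libraries, against 3.68 CPM in primed RH6 and 2.96 CPM in primed RH5. Its naive libraries did not reach the primed ones, and it fell by 1.09 ± 0.28 on the log2 scale (adjusted p = 0.0294). DESeq2 did not make that call (adjusted p = 0.0547), and it was lost without any single library other than primed RH5 (adjusted p 0.0636 to 0.0854). Per kilobase, ATP2A2 made up 97.3% to 98.5% of the SERCA level in naive libraries, against 92.3% in primed RH6 and 91.6% in primed RH5.

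At the plasma membrane, the Ca2+ pump (PMCA) level rested on ATP2B1 and ATP2B4, the widely expressed forms, and ATP2B1 rose in naive cells. ATP2B1 had 263 and 229 CPM in naive RH6 and 188 and 181 CPM in naive RH5 libraries, against 116 CPM in primed RH6 and 121 CPM in primed RH5. Its naive libraries all lay above the primed ones, with naive RH6 the highest. The rise was 0.84 ± 0.14 on the log2 scale over both lines (adjusted p = 0.00622), 1.09 ± 0.13 in RH6 (adjusted p = 0.000121), with 0.61 ± 0.13 in RH5 (adjusted p = 0.00427). ATP2B4 had 136 and 124 CPM in naive RH6 and 208 and 220.0 CPM in naive RH5 libraries, against 172 CPM in primed RH6 and 95.9 CPM in primed RH5. Naive RH6 lay below its own primed library and naive RH5 above its own. ATP2B4 fell by 0.40 ± 0.12 on the log2 scale in RH6 (adjusted p = 0.0226), whereas it rose by 1.16 ± 0.12 in RH5 (adjusted p = 6.87e-05). The difference between the lines was -1.56 ± 0.17 (adjusted p = 0.000307), so the value over both lines (0.31 ± 0.32, adjusted p = 0.528) averages opposite directions. The fall in RH6 was lost without naive RH6 replicate 2 (adjusted p = 0.0553) and with DESeq2 (adjusted p = 0.0614).

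ATP2B2 and ATP2B3, PMCA forms typical of neurons, were at the limit of detection. ATP2B2 summed to 5 counts in the naive libraries, with 0 in naive RH5 replicate 1, and to 29 counts in the primed libraries, a ratio of 0.0894 with a counting interval of 0.027 to 0.234. It was called lower (adjusted p = 0.0186), and the call was lost without naive RH6 replicate 1 (adjusted p = 0.0659), naive RH6 replicate 2 (adjusted p = 0.0745) or primed RH6 (adjusted p = 0.102). ATP2B3 had 16 counts over the naive and 27 over the primed libraries, a ratio of 0.307 (0.155 to 0.591), and missed the threshold over the lines together (adjusted p = 0.0966). ATP2B3 was called lower in RH6 (log2 -3.21 ± 0.82, adjusted p = 0.0129), on 3 naive RH6 counts, and not in RH5 (log2 -0.74 ± 0.69, adjusted p = 0.449). The Golgi calcium and manganese pumps showed a common form near its primed level and a rare form that was lower. ATP2C1, the general form, had 66.5 to 85.1 CPM in naive libraries, against 68.1 CPM in primed RH6 and 78.9 CPM in primed RH5 (log2 0.03 ± 0.13, adjusted p = 0.902, and -0.05 with upper-quartile scaling). ATP2C2, known from mammary and other secretory epithelia, had 0.210 and 0.220 CPM in naive RH6 and 1.27 and 0.670 CPM in naive RH5 libraries, against 2.21 CPM in primed RH6 and 2.38 CPM in primed RH5. It fell by 2.14 ± 0.52 on the log2 scale (adjusted p = 0.0244), on 33 naive and 66 primed counts. The ATP2C2 call was lost without naive RH6 replicate 1 (adjusted p = 0.0766), naive RH6 replicate 2 (adjusted p = 0.0861), naive RH5 replicate 2 (adjusted p = 0.0673) or primed RH6 (adjusted p = 0.077).

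**Figure D3:**
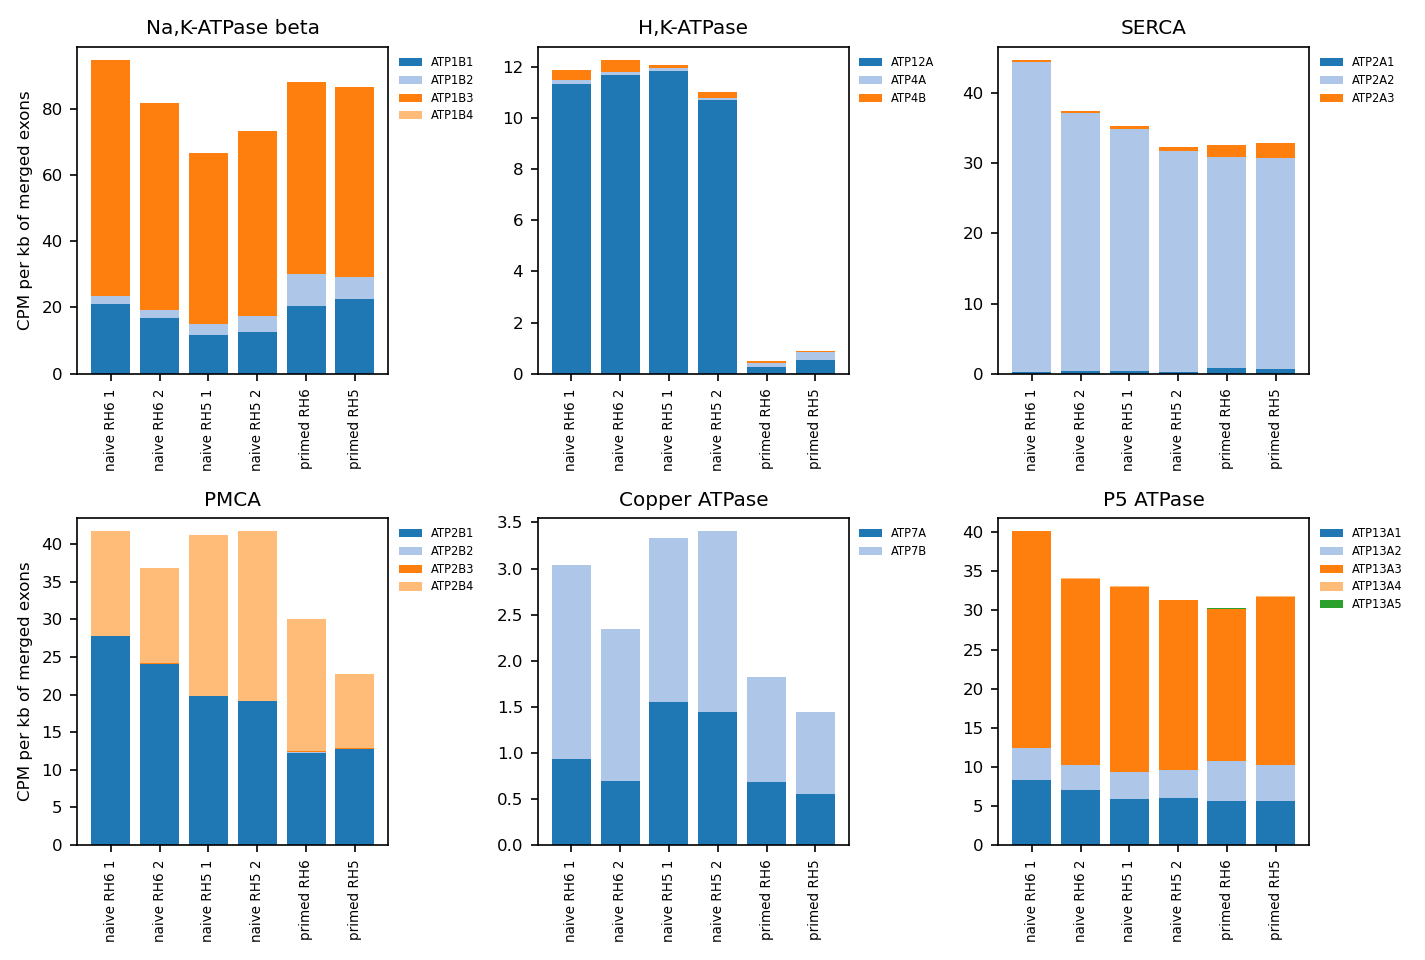
Level as CPM per kilobase of merged exons, stacked by gene in 6 panels, with the 4 naive libraries left of the 2 primed libraries. The panels hold the Na,K-ATPase beta subunits and the H,K-ATPase, SERCA, PMCA, copper ATPase and P5 ATPase genes. The flippases, the Golgi calcium pumps and ATP1A4 are not shown. In the SERCA panel ATP2A2 makes up most of the height in every library, and in the beta subunit panel ATP1B3 does, while the H,K-ATPase bar is high in naive libraries only through ATP12A and the PMCA bar is split between ATP2B1 and ATP2B4.

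Both copper pumps had higher levels in naive libraries, and ATP7B was the gene called. ATP7B, the copper exporter altered in Wilson disease, had 20.3 and 15.9 CPM in naive RH6 and 17.2 and 19.1 CPM in naive RH5 libraries, against 10.97 CPM in primed RH6 and 8.67 CPM in primed RH5. The naive libraries of both lines overlapped each other and lay above both primed libraries. ATP7B rose by 0.89 ± 0.18 log2 units (adjusted p = 0.0123), by 0.72 ± 0.20 in RH6 (adjusted p = 0.0186), and in RH5 by 1.06 ± 0.21 (adjusted p = 0.00317). The RH6 value missed the threshold without naive RH6 replicate 1 (adjusted p = 0.0572) and with DESeq2 (adjusted p = 0.0824). ATP7A, altered in Menkes disease, had 10.2 and 7.56 CPM in naive RH6 and 16.9 and 15.7 CPM in naive RH5 libraries, against 7.49 CPM in primed RH6 and 5.99 CPM in primed RH5. Naive RH5 was the high group, and naive RH6 replicate 2 lay next to primed RH6. ATP7A was not called over both lines (log2 0.81 ± 0.30, adjusted p = 0.0907) and rose in RH5 (log2 1.44 ± 0.24, adjusted p = 0.00107), with a difference of -1.20 ± 0.33 between the lines (adjusted p = 0.0418).

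Of 11 flippase genes tested, 1 rose (ATP10D) and 3 fell (ATP8A1, ATP8B3 and ATP10A) over both lines, beside 12.1% of all genes called higher and 13.6% called lower. ATP10D, a glucosylceramide flippase, had 8.95 and 7.64 CPM in naive RH6 and 11.6 and 11.5 CPM in naive RH5 libraries, against 5.89 CPM in primed RH6 and 5.20 CPM in primed RH5. It lay above the primed level in all naive libraries and rose by 0.81 ± 0.22 log2 units (adjusted p = 0.0336). That call was lost without any single library other than primed RH6 (adjusted p 0.0534 to 0.105).

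ATP8A1, a phosphatidylserine flippase of endosomes and the Golgi network, fell in both lines. It had 9.58 and 7.56 CPM in naive RH6 and 9.10 and 7.15 CPM in naive RH5 libraries, against 32.0 CPM in primed RH6 and 25.9 CPM in primed RH5. The naive libraries of both lines overlapped each other and stayed below both primed libraries. ATP8A1 fell by 1.78 ± 0.17 on the log2 scale (adjusted p = 0.000716), by 1.90 ± 0.19 in RH6 (adjusted p = 3.94e-05), and in RH5 by 1.67 ± 0.20 (adjusted p = 0.00013). ATP10A, a flippase for phosphatidylcholine, had 0.420 and 0.734 CPM in naive RH6 and 0.423 and 0.819 CPM in naive RH5 libraries, against 3.35 CPM in primed RH6 and 3.90 CPM in primed RH5. All naive libraries were low, on 33 counts in sum against 104 in the 2 primed libraries, through which ATP10A passed the count filter. ATP10A fell by 2.58 ± 0.36 on the log2 scale (adjusted p = 0.00294), and both lines showed a called fall, RH6 by 2.53 ± 0.48 (adjusted p = 0.00245) and RH5 by 2.64 ± 0.47 (adjusted p = 0.00166). ATP8B3, known from the acrosome of mouse sperm, had 0.630 and 0.661 CPM in naive RH6 and 1.90 and 3.05 CPM in naive RH5 libraries, against 4.15 CPM in primed RH6 and 4.69 CPM in primed RH5. Naive RH6 was the lowest group. ATP8B3 fell by 1.74 ± 0.43 on the log2 scale (adjusted p = 0.0263), and that call was lost without naive RH6 replicate 1 (adjusted p = 0.0841), naive RH6 replicate 2 (adjusted p = 0.0962), naive RH5 replicate 1 (adjusted p = 0.0754) or primed RH6 (adjusted p = 0.0752).

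ATP8A2, a phosphatidylserine flippase of neurons and photoreceptors, behaved differently in the 2 lines. It had 47.5 and 49.1 CPM in naive RH6 and 0.988 and 1.19 CPM in naive RH5 libraries, against 35.3 CPM in primed RH6 and 23.6 CPM in primed RH5. Only the naive RH5 libraries were low, and both of them were. ATP8A2 fell by 4.43 ± 0.20 on the log2 scale in RH5 (adjusted p = 2.98e-07) and rose by 0.45 ± 0.14 in RH6 (adjusted p = 0.0287), a difference of 4.88 ± 0.25 between the lines (adjusted p = 5.91e-06). The rise in RH6 missed the threshold without naive RH6 replicate 2 (adjusted p = 0.056) and with DESeq2 (adjusted p = 0.186). Between naive RH6 and naive RH5 the log2 difference was 5.46 ± 0.17 (adjusted p = 4.8e-08). Because the lines moved in opposite directions, the value over both lines was -2.02 ± 1.00 (adjusted p = 0.184).

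The other flippases tested were not called over both lines. ATP8B1, the flippase of the bile canaliculus, had 8.52 to 14.7 CPM in naive libraries and 9.63 to 12.3 CPM in primed libraries (log2 0.05 ± 0.16), and ATP8B2 had 57.3 to 67.4 CPM in naive libraries and 58.1 to 65.2 CPM in primed libraries (log2 0.02 ± 0.11). Both values turned to the other sign with upper-quartile scaling (log2 -0.03 for ATP8B1 and -0.06 for ATP8B2). ATP9A and ATP9B are endosomal and Golgi members that work without the accessory subunit TMEM30A. The log2 fold change was -0.41 ± 0.20 for ATP9A (adjusted p = 0.189) and -0.37 ± 0.12 for ATP9B (adjusted p = 0.0622). In RH5 alone ATP9A was called lower (log2 -0.64 ± 0.22, adjusted p = 0.0432), a call lost without naive RH5 replicate 2 (adjusted p = 0.0567). ATP11A, a plasma membrane flippase, missed the threshold over both lines (log2 -0.28 ± 0.10, adjusted p = 0.0874) and was called lower in RH6 (log2 -0.39 ± 0.11, adjusted p = 0.022), a call that DESeq2 did not make (adjusted p = 0.0961). ATP11B had a log2 fold change of 0.17 ± 0.12 (adjusted p = 0.361). ATP8B4 and ATP10B were under the count filter, with 15 and 6 counts over the naive libraries and 17 and 9 over the primed libraries.

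None of the P5 ATPases tested was called over both lines, and these were ATP13A1, which removes misplaced helices from the endoplasmic reticulum membrane, ATP13A2, the lysosomal polyamine exporter, and ATP13A3, linked to polyamine uptake. ATP13A3 was among the most abundant members, with 368 and 316 CPM in naive RH6 and 315 and 289 CPM in naive RH5 libraries, against 258 CPM in primed RH6 and 286 CPM in primed RH5 (log2 0.24 ± 0.13, adjusted p = 0.207). The log2 fold change was 0.27 ± 0.13 for ATP13A1 (adjusted p = 0.182) and -0.46 ± 0.15 for ATP13A2 (adjusted p = 0.0596). In RH6 alone ATP13A1 (log2 0.45 ± 0.14, adjusted p = 0.0306) and ATP13A3 (log2 0.41 ± 0.13, adjusted p = 0.0358) were called higher, and both calls were lost without naive RH6 replicate 1 (adjusted p = 0.0993 and 0.0999) and with upper-quartile scaling (adjusted p = 0.0755 and 0.0929). ATP13A4 and ATP13A5 had 6 and 5 counts over the naive libraries and 3 and 10 over the primed libraries, and were not tested.

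Within RH6, 18 of 30 members were called between naive and primed cells (7 higher and 11 lower), 60% beside 33.6% of all genes (16.4% higher and 17.2% lower). Upper-quartile scaling changed that split to 3 higher and 13 lower. Within RH5, 14 were called (7 higher and 7 lower), 46.7% beside 33.5% of all genes (16.5% higher and 17% lower). Each of these tests set 2 naive libraries against 1 primed library, which is assumed to vary as the replicated groups do. The lines had 9 called members in common, 50% of the RH6 calls and 64.3% of the RH5 calls. Of these 9, 7 moved the same way (ATP1B2, ATP12A, ATP2A3, ATP2B1, ATP7B, ATP8A1 and ATP10A) and 2 moved in opposite ways (ATP2B4 and ATP8A2). Matching shares over all genes are not given for this overlap or these directions, so neither can be read as particular to the members. The state effect itself differed between the lines in 5 members (16.7%, beside 12% of all genes), namely ATP1B1, ATP1B2, ATP2B4, ATP7A and ATP8A2. RH6 had the larger log2 value in 2 of them and the smaller in 3, and with upper-quartile scaling in 1 and 3.

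**Figure D4:**
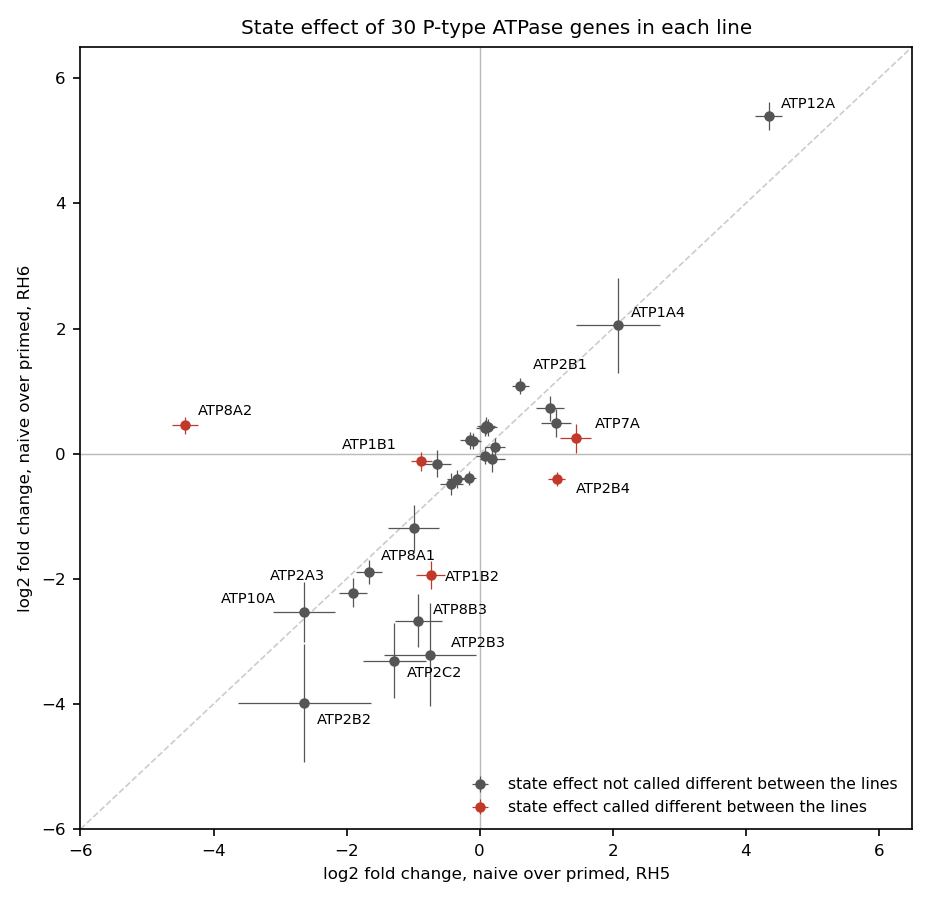
Log2 fold change of naive over primed cells in RH5 (horizontal) and in RH6 (vertical) for the 30 members tested, with SE bars, the line of equal effects dashed, and the 5 members whose effect was called different between the lines in red. ATP12A lies at 4.34 and 5.40 in the upper right, and ATP8A2 lies apart at -4.43 in RH5 and 0.45 in RH6.

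The naive cells of the 2 lines also differed from each other. Between naive RH6 and naive RH5, 11 members were called (5 higher and 6 lower in naive RH6), 36.7% beside 25.5% of all genes (12% higher and 13.5% lower). Besides ATP8A2, those higher in naive RH6 were ATP1B1 (log2 0.63), ATP1B3 (log2 0.32), ATP2B1 (log2 0.41) and ATP13A1 (log2 0.37). Those lower in naive RH6 were ATP8B3 (log2 -1.92), ATP2C2 (log2 -2.14), ATP7A (log2 -0.88), ATP2B4 (log2 -0.72), ATP1B2 (log2 -0.70) and ATP8B1 (log2 -0.63). ATP1B1, ATP2B4, ATP7A, ATP8A2 and ATP8B3 kept these calls without any single naive library. The calls of ATP1B3, ATP2B1, ATP13A1, ATP2C2, ATP1B2 and ATP8B1 were lost without at least 1 naive library, with highest adjusted p of 0.271, 0.0738, 0.191, 0.175, 0.194 and 0.0536, and DESeq2 did not make those of ATP1B3 (adjusted p = 0.103), ATP13A1 (adjusted p = 0.133), ATP2C2 (adjusted p = 0.144), ATP1B2 (adjusted p = 0.0741) and ATP8B1 (adjusted p = 0.13). Fewer members were called higher in naive RH6 without naive RH6 replicate 1, naive RH5 replicate 1 or naive RH5 replicate 2. The share of all genes called also fell under each of these settings. ATP12A did not differ detectably between naive RH6 and naive RH5 (log2 0.03 ± 0.11, adjusted p = 0.872). The naive libraries of the lines were at different passages, 10 in RH6 and 17 in RH5, and line and passage cannot be told apart here.

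Genes that work with the pumps moved in several directions. Of 87 partner genes tested, 32 were called over both lines, 36.8% beside 25.7% of all genes, and the counts of each list below stand beside the same share of all genes (12.1% higher and 13.6% lower). Of 13 regulators of the Na,K-ATPase tested, 2 rose and 5 fell, with a median log2 fold change of -1.04. FXYD1 (log2 -2.52 ± 0.44, adjusted p = 0.00722) and FXYD6 (log2 -1.93 ± 0.21, adjusted p = 0.00119), small subunits that tune pump kinetics, fell, and FXYD5 was not called (log2 0.22 ± 0.22, adjusted p = 0.493). The NKAIN proteins, which bind the beta subunit, included NKAIN1 (log2 -1.27 ± 0.15, adjusted p = 0.00166) and NKAIN4 (log2 -1.27 ± 0.32, adjusted p = 0.0278), which fell, and NKAIN2 (log2 2.19 ± 0.44, adjusted p = 0.0121), which rose. The fall of NKAIN4 lay mainly in RH6 (log2 -1.94 ± 0.25, against -0.55 ± 0.25 in RH5), whereas NKAIN1 fell alike in RH6 (log2 -1.26 ± 0.18) and RH5 (log2 -1.28 ± 0.19). SLC8A1, the sodium-calcium exchanger driven by the sodium gradient, fell by 1.43 ± 0.24 on the log2 scale (adjusted p = 0.00654).

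Of 21 calcium store genes tested, 4 rose and 3 fell, with a median log2 fold change of 0.12. The chaperones of the endoplasmic reticulum rose, HSPA5 by 1.08 ± 0.13 (adjusted p = 0.00183), CALR by 0.76 ± 0.13 (adjusted p = 0.00613) and CANX by 0.48 ± 0.12 (adjusted p = 0.0269) on the log2 scale. STIM1, the sensor of store calcium, rose by 0.81 ± 0.16 (adjusted p = 0.0105), while its channel ORAI1 was not called (log2 0.25 ± 0.16, adjusted p = 0.285). Of the store release channels, ITPR3 fell by 1.26 ± 0.13 (adjusted p = 0.000968), and ITPR1 (log2 -0.20 ± 0.21) and ITPR2 (log2 -0.59 ± 0.27) were not called over both lines. ITPR2 fell in RH5 (log2 -1.21 ± 0.12, adjusted p = 3.91e-05), not in RH6 (log2 0.13 ± 0.12, adjusted p = 0.454), with a called difference between the lines of 1.35 ± 0.18 (adjusted p = 0.000959). MCU, the mitochondrial calcium channel, fell by 0.46 ± 0.12 (adjusted p = 0.0309). The SERCA inhibitors were barely detected, with PLN at 2 to 7 counts in naive libraries and 4 and 11 in primed libraries, and SLN at 2 to 10 counts in naive libraries and 0 in primed libraries. Of 11 copper genes tested, edgeR called 0 over both lines. The importer SLC31A1 (log2 0.27 ± 0.13, adjusted p = 0.159) and the chaperone ATOX1 (log2 -0.02 ± 0.26, adjusted p = 0.968) were among them.

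Of 15 flippase subunits and scramblases tested, 3 rose and 6 fell, with a median log2 fold change of -0.17. TMEM30A, the obligate subunit of most P4 flippases, had 301 to 359 CPM in naive libraries, against 326 CPM in primed RH6 and 386 CPM in primed RH5, and was not called (log2 -0.17 ± 0.13, adjusted p = 0.382). TMEM30B, its paralog, fell by 1.44 ± 0.22 on the log2 scale (adjusted p = 0.0041). The calcium-gated scramblase ANO6 rose by 0.92 ± 0.13 (adjusted p = 0.00332) and PLSCR4 by 2.27 ± 0.34 (adjusted p = 0.00413). ABCA1, the cholesterol and phospholipid exporter, fell by 2.02 ± 0.15 (adjusted p = 0.000309), as did ANO9 by 1.94 ± 0.29 (adjusted p = 0.00416) and the lysolipid carrier MFSD2A by 1.63 ± 0.29 (adjusted p = 0.008). The apoptotic scramblase XKR8 was not called (log2 0.05 ± 0.18, adjusted p = 0.858).

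Of 22 subunits of the V-type proton pump tested, the other main ATP-driven proton transporter, 4 rose and 1 fell, with a median log2 fold change of 0.27. ATP6AP1 rose by 0.99 ± 0.22 log2 units (adjusted p = 0.0185), ATP6V1E1 by 0.58 ± 0.13 (adjusted p = 0.0168), ATP6V1B2 by 0.48 ± 0.14 (adjusted p = 0.0424) and ATP6V1G1 by 0.40 ± 0.11 (adjusted p = 0.0362). ATP6V1B1, a subunit of kidney and inner ear, had 0.280 and 0.0734 CPM in naive RH6 and 7.97 and 7.52 CPM in naive RH5 libraries, against 0.268 CPM in primed RH6 and 0.0722 CPM in primed RH5. It was high in the naive RH5 libraries alone and near the limit of detection in the other libraries. It was called in RH5 (adjusted p = 4.89e-05), not in RH6 (adjusted p = 0.677), and the difference between the lines was called (adjusted p = 0.0105). ATP6V0A4 was not called (log2 -0.98 ± 0.34, adjusted p = 0.0781). Of 6 acid and potassium partners tested, 2 rose and 3 fell. CA2, a cytosolic carbonic anhydrase that supplies protons, had 28.6 and 22.8 CPM in naive RH6 and 22.3 and 22.4 CPM in naive RH5 libraries, against 8.16 CPM in primed RH6 and 7.15 CPM in primed RH5. It rose by 1.65 ± 0.16 log2 units (adjusted p = 0.000803). The membrane-bound carbonic anhydrase CA4 fell by 4.45 ± 0.40 (adjusted p = 0.000581), and the chloride channel protein CLIC6 by 1.58 ± 0.41 (adjusted p = 0.0292). The potassium channel KCNQ1 had 0 counts in both naive RH6 libraries and 4 in each naive RH5 library, against 25 in each primed library, a ratio of summed counts of 0.083 with a counting interval of 0.034 to 0.176. It was called lower (adjusted p = 0.0123), and its fitted log2 value ran from -7.55 to -2.60 without single libraries and is not a measured fold. Leaving out single libraries ended the calls of NKAIN4, CANX, MCU, CLIC6, ATP6AP1, ATP6V1E1, ATP6V1B2 and ATP6V1G1, whose highest adjusted p without a library was 0.135, 0.0805, 0.118, 0.114, 0.0564, 0.0636, 0.145 and 0.116.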

How the data were processed

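RNA of 6 libraries was sequenced as 75-base pairs with a stranded total RNA kit, per the labels' protocols, although the labels also call the molecule polyA RNA. The deposited values are unnormalized counts per gene, made by the authors with STAR 2.4.0a and featureCounts 1.4.5-p1 on hg19 (GRCh37.p5), per the submitters' processing notes. The strand setting of the counting is not given in the sources used here, so reads of a gene and of an antisense gene cannot be told apart. The 37 genes of the mitochondrial genome stood at 0 in every library.

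Here edgeR 4.0.16 (R 4.3.3) took the counts with TMM factors, and 19434 genes passed its filter (minimum count 10, minimum total 15). The fit over both lines held line and state (3 residual degrees of freedom). The fits within lines, of the difference between lines and of naive RH6 against naive RH5 used the 4 group means (2 residual degrees of freedom). P-values were adjusted with Benjamini-Hochberg over all genes tested. SE is the log2 fold change divided by the square root of the quasi-likelihood F. Ratios of summed counts carry exact 95% binomial intervals for counting error only. Levels per kilobase used merged exon lengths of GENCODE v29 (GRCh38), another build than the counts. The fits were tested on simulated counts. Replicate libraries differed by more than sampling noise, so none was treated as a repeat deposit of another, and whether they came from separate cultures is not known.

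The members and gene lists were chosen with earlier results of these data known. Some genes that the rule or the lists hold are not reported here, and counts of members and list genes leave them out, while the fits used every gene. All other members are named. Of the partner lists, set genes and up to 4 more called genes per list with the largest change are named. Alternatives were DESeq2 1.42.0, limma-voom (limma 3.58.1), RLE and upper-quartile factors, no count filter, no line term, summed naive libraries, the replicate number as a block and leaving out each library. The listed genes MRLN and PLSCR3 had no row by that symbol.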

Additional observations from a re-analysis of the deposited data

Results flagged for a closer look

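In 5 members the change from primed to naive cells differed between the lines by a test of the difference itself (RH6 minus RH5, edgeR, adjusted over all genes). ATP8A2 differed by 4.88 on the log2 scale (adjusted p = 5.91e-06), through low levels in both naive RH5 libraries. ATP2B4 differed by -1.56 (adjusted p = 0.000307), falling in RH6 and rising in RH5. ATP1B2 differed by -1.21 (adjusted p = 0.0345), ATP7A by -1.20 (adjusted p = 0.0418) and ATP1B1 by 0.75 (adjusted p = 0.0489). With DESeq2 the differences of ATP1B1 (adjusted p = 0.115), ATP1B2 (adjusted p = 0.0984) and ATP7A (adjusted p = 0.189) were not called. Each line has 1 primed library, and passage differed between the lines in the same libraries, so line, passage and library cannot be told apart.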

How the results depend on the processing

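Over both lines, 4 of the 13 called members (ATP2A3, ATP8A1, ATP10A and ATP12A) kept their call under all 13 alternatives. ATP10A passed the count filter through its primed libraries, so its fall was favoured wherever that filter was used. The share of all genes called also changed with the setting, including where only a count of members or partner genes is given below. Summing the naive libraries of each line left 4 called members and 8 called partner genes, against 13 and 32, while the share of all genes called was 5.52% against 25.7%; that fit has fewer libraries. ATP2B1 (adjusted p = 0.0713) and ATP7B (adjusted p = 0.117) lost their calls there. DESeq2 gave 10 called members in RH6, 2 for the difference between lines and 6 between naive RH6 and naive RH5, against 18, 5 and 11 with edgeR, while the share of all genes called was 20.8%, 6.72% and 14.7% with DESeq2 against 33.6%, 12% and 25.5% with edgeR. limma-voom gave 3 for the difference between lines, with 11.7% of all genes; the cause was not tested. Without a library the called members ran from 6 (without naive RH6 replicate 2) to 18 (without primed RH5) over both lines, 7 being left without naive RH6 replicate 1, and the share of all genes called moved with them (15.7%, 32.3% and 17.4% under these settings). They ran from 14 to 19 in RH6, 13 to 18 in RH5, 5 to 7 for the difference and 7 (without naive RH5 replicate 2) to 11 between naive cells, and the partner genes from 22 to 42.

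Upper-quartile factors moved the median log2 fold change of all genes to -0.09 over both lines and to -0.11 in RH6, and turned ATP1B3 to -0.032, ATP2C1 to -0.054, ATP8B1 to -0.032, ATP8B2 to -0.058 and XKR8 to -0.028 over both lines. Members also gained calls over both lines. ATP9B (adjusted p = 0.0325), ATP11A (adjusted p = 0.0403) and ATP13A2 (adjusted p = 0.0337) were called lower with upper-quartile factors in edgeR. ATP13A2 was also called lower with limma-voom (adjusted p = 0.0487). In edgeR without the count filter, ATP1B1 (adjusted p = 0.0405) and ATP8A2 (adjusted p = 0.012) were called lower and ATP7A (adjusted p = 0.0264) higher. Without a library, values that changed sign ran over both lines from -0.092 to 0.23 for ATP1B3, -0.37 to 1.17 for ATP2B4, -0.14 to 0.24 for ATP2C1, -4.42 to 0.48 for ATP8A2, -0.062 to 0.20 for ATP8B1, -0.035 to 0.091 for ATP8B2, -0.41 to 0.061 for ITPR1, -1.21 to 0.16 for ITPR2, -0.11 to 0.087 for ATOX1, -0.35 to 0.064 for TMEM30A, -0.19 to 0.34 for XKR8 and -0.53 to 6.58 for ATP6V1B1. In RH6 they ran from -0.30 to 0.037 for ATP1B1, -0.12 to 0.048 for ATP8B2, -0.47 to 0.092 for ATP9A and -0.047 to 0.24 for ATP11B, and in RH5 from -0.02 to 0.20 for ATP8B2. For ATP2B4 and ATP8A2 the turn came without primed RH5, which leaves the RH6 comparison alone.

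The replicate numbers were not taken to pair the naive libraries: across genes, the differences between replicates 1 and 2 of the lines correlated at 0.14, with 2 pairs only. With the replicate block, 16 members were called between naive RH6 and naive RH5, against 11 without the block. In fits of the naive libraries alone, the share of all genes called was 38.1% with the block and 25.9% without it. Depth limits ATP1A4, ATP2A1, ATP2B2, ATP2B3, ATP2C2 and ATP10A, which have under 200 counts each over all libraries.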

Other observations

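On chromosome 13, the gene after ATP8A2 in RefSeq order is SHISA2, of a family that in Xenopus holds Wnt and FGF receptors back in the endoplasmic reticulum. It was lowest in the same naive RH5 libraries. Unlike ATP8A2, it was also below both primed libraries in naive RH6. SHISA2 had 31.8 and 23.6 CPM in naive RH6 and 3.03 and 2.83 CPM in naive RH5 libraries, against 121 CPM in primed RH6 and 75.5 CPM in primed RH5. It was higher in naive RH6 than in naive RH5 by 3.24 on the log2 scale (adjusted p = 2.23e-06). Of the 9 genes tested within 5 places on either side of ATP8A2, SHISA2 was the 1 called higher in naive RH6, and RNF6 (log2 -0.43, adjusted p = 0.0197) and WASF3 (log2 -0.83, adjusted p = 0.00032) were lower. Around ATP12A, 6 such genes were tested, and SPATA13 was called higher in naive RH6 than in naive RH5, with 55.4 and 50.5 CPM in naive RH6 and 18.2 and 22.2 CPM in naive RH5 libraries, against 20.9 CPM in primed RH6 and 27.4 CPM in primed RH5. CPAP, PABPC3, AMER2 and MTMR6 lie within 5 places of both genes and were not called between the naive cells of the lines. These neighbours were looked at after the values of ATP8A2 and ATP12A were known. Beside their counts, 12% of all genes tested were called higher and 13.5% lower in naive RH6 than in naive RH5.

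Among antisense rows of the members, ATP1B3-AS1 had 10 to 17 counts in naive libraries and 10 and 13 in primed libraries, and ATP11A-AS1 had 3 to 11 counts in naive libraries and 6 and 9 in primed libraries. ATP1B3P1, a copy of ATP1B3, had 78 to 123 counts in naive libraries and 71 and 114 in primed libraries, beside 8659 and 4301 summed counts of ATP1B3 itself in naive and primed libraries.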
